A study of Mus musculus with 18 samples.

Results

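The endoplasmic reticulum (ER) genes described here are 41 genes for protein translocation, folding, quality control and the unfolded protein response, of 21018 genes that had a count in at least 1 of the gene tables. They were taken by gene symbol from a list of these pathways and fall into 17 chaperones and folding enzymes, 6 stress sensors and transcription factors, 7 genes of ER-associated degradation and 11 genes of translocation and signal peptide removal. All 41 had counts in each of the 3 tables. The RNA came from the livers of 6 male C57/B6J mice aged 12 weeks, 3 of which received IL-1β at 20 µg/kg by intraperitoneal injection and 3 of which received saline, with the liver taken 4 hours later. IL-1β is an inflammatory cytokine that switches hepatocytes to the secretion of acute-phase proteins. RNA from each mouse entered 3 library kits, which gave 18 libraries. Per the study's methods, the TruSeq libraries were made in an earlier study and read at 125 bases. Those of Pico and V4 were read at 150 bases on another sequencer model. Pico makes stranded total RNA libraries after ribosomal depletion and was given 1.7 to 2.6 ng of RNA, V4 makes unstranded libraries from poly(A) RNA and was given 0.8 to 1.3 ng, and TruSeq makes stranded poly(A) libraries and was given 200 ng. Mice I9579, I9582 and I9583 received IL-1β, mice U9574, U9575 and U9576 received saline, and values of single libraries follow in this order throughout.

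Secreted and membrane proteins enter the ER through the Sec61 channel, lose their signal peptide to the signal peptidase, and are folded by chaperones such as BiP, the product of Hspa5, and by protein disulfide isomerases. Proteins that do not fold are returned to the cytosol by the ER-associated degradation machinery around the ubiquitin ligase Hrd1, which Syvn1 encodes. When unfolded proteins gather in the ER, the sensors IRE1α (Ern1), PERK (Eif2ak3) and ATF6 (Atf6) start the unfolded protein response, in which spliced Xbp1 mRNA, cleaved ATF6 and the PERK-driven translation of Atf4 mRNA raise chaperone, degradation and translocation genes. The liver secretes most plasma proteins, and its hepatocytes are rich in rough ER. The element that ATF6 and XBP1 recognise before many of these genes is the ER stress response element (ERSE), read here as CCAAT and CCACG with 9 bases between them.

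ERSE was found in the RefSeq promoter window of 300 bases in 10 of the 33 members that had one (30.3%), against 37 of the 27025 genes in the same table (0.137%). The windows run from 250 bases before to 50 bases after the start, were defined on GRCm38.p6, and both strands were searched. The 10 members were Hspa5, Hsp90b1, Calr, Canx, Pdia6, Creld2, Dnajc3, Ero1lb, Syvn1 and Derl3, and Hsp90b1 held 2 matches. The shorter variant ERSE-II, read as ATTGG and CCACG with 1 base between them, was in Herpud1 and Dnajb11 (6.06% of the members with a window, against 0.0444% of all genes). An ATF4 element, read as TTGCATCA, was in Herpud1 alone (3.03% of the members, 1.03% of all genes), and the core of the XBP1-type element, TGACGTGG, was in none of the 33 (0.714% of all genes). These are matches of letters and say nothing of binding. ERSE is known from genes of these pathways, so its higher share among the members follows from the list. The counts over all genes include the members. Manf, Sec61a1, Atf6, Ssr2, Hyou1, Derl1, Spcs3 and Sec11c had no window in the table.

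The stretches below show the match in capitals within its flanks, on the strand of the gene from 5′ to 3′, for the ERSE members that rose in all 3 kits (Hspa5, Hsp90b1, Creld2 and Syvn1), for Herpud1, which holds ERSE-II and the ATF4 element, and for the ERSE members with no call in any kit (Canx and Ero1lb). Where the match lies on the opposite strand, as in Hsp90b1, Creld2 and Ero1lb, the capitals read CGTGG and ATTGG. In Herpud1 the first capitals are the ATF4 element and the others are ERSE-II. The RefSeq sequences were placed on mm9 by exact match, at chr2:34627540-34627568 for Hspa5 (plus strand, within an annotated exon), chr10:86168258-86168316 for Hsp90b1 (minus strand), chr15:88649930-88649988 for Creld2 (plus), chr19:6046512-6046570 for Syvn1 (plus), chr8:96910197-96910307 for Herpud1 (plus), chr11:50139282-50139340 for Canx (minus) and chr13:12657929-12657987 for Ero1lb (plus). All but the stretch of Hspa5 lie outside the annotated exons of their gene.
Hspa5: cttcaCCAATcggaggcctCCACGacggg
Hsp90b1: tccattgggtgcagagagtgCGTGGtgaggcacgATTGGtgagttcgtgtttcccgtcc
Creld2: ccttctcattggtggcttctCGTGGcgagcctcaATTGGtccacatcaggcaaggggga
Syvn1: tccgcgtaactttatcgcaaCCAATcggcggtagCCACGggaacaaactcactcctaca
Herpud1: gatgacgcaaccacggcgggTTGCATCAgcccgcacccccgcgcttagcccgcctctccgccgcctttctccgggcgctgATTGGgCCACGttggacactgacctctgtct
Canx: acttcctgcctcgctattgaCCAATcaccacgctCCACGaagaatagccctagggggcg
Ero1lb: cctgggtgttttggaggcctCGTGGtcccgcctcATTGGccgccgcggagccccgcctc

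Gene counts per library ranged from 12348864 to 12858237 (TruSeq), 12013453 to 12352473 (V4) and 4024632 to 4134070 (Pico), so Pico was counted at the lowest depth. The hepatocyte markers were high in every library, with a summed level of 53070 to 103300 CPM (counts scaled to 1000000 gene counts of the library) over 5 markers. In TruSeq their sum was 71550 to 79880 after IL-1β and 86380 to 103300 after saline, with no overlap, while the ranges overlapped in Pico and V4. Of these 5 markers, 1 was called higher and 2 lower in TruSeq, 1 and 4 in Pico, and 1 and 1 in V4. Markers of other cell types also differed between the treatments. In TruSeq the neutrophil markers (8 of 9 measured) summed to 39.8 to 81.0 CPM after IL-1β and 1.80 to 3.00 after saline. The 7 endothelial markers summed to 91.0 to 117.6 after IL-1β and 228.3 to 243.8 after saline. In the same order, the 7 stellate cell markers summed to 174.3 to 227.2 and 307.5 to 353.5. The 7 Kupffer cell markers summed to 64.1 to 92.7 and 132.8 to 222.6. Markers of plasma and B cells, whose ER is also large, summed to 0.725 to 1.38 after IL-1β and 1.94 to 4.19 after saline in TruSeq. Their part in the results below was not tested. In bulk tissue, a change in the number of cells of a type and a change in RNA per cell cannot be told apart.

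Saline mouse U9575 stood apart for most of these genes in every kit, above all in the folding and degradation groups. It was the highest saline mouse for 37 of the 41 members in TruSeq (90.2%), 34 in Pico (82.9%) and 30 in V4 (73.2%), in CPM. Among all genes whose mean count reached 20, it was the highest saline mouse for 33.9%, 37.7% and 33.8%. In V4, U9575 was the highest for 17 of 17 folding genes and 6 of 7 degradation genes. For translocation genes and sensors in V4, it was the highest for 5 of 11 (45.5%) and 2 of 6 (33.3%). It was the highest in all 3 kits at once for 27 members (65.9%), against 770 of 8960 genes that reached that mean in every kit (8.59%) and 52 of the 481 other genes called higher after IL-1β in all 3 kits (10.8%). Since the kits measured the same RNA, the agreement between kits concerns that RNA and not further mice.

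Hspa5 shows the size of the difference, with 875, 2119 and 908.5 TruSeq CPM in U9574, U9575 and U9576 and 3507 to 3939 in the IL-1β mice. Relative to the mean of the other saline mice, the level in U9575 was higher by a median of 0.36 (log2) over the members in TruSeq, 0.31 in Pico and 0.25 in V4, where the median over all genes of that depth was 0.0022, 0.013 and 0.016. The members farthest above in TruSeq were Manf (1.401), Syvn1 (1.36), Creld2 (1.28), Hspa5 (1.248) and Dnajb9 (1.203), which are also members with large responses to IL-1β. Atf4 (-0.072) and Ern1 (-0.035) were not above the other saline mice in TruSeq, and Xbp1 was close to them (0.036). For 17 of the 41 members U9575 lay between the other saline mice and all IL-1β mice in each of the 3 kits. This held for 115 of the 8960 genes with that mean in every kit. It also held for 52 of the 481 other genes called higher in all 3 kits. The neutrophil markers of U9575 summed to 1.80 CPM in TruSeq, the lowest of the saline mice, and its Kupffer and endothelial markers were within the range of the other saline mice. Counts of calls and the values of the leading genes are therefore also given without this mouse.

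**Figure D1:**
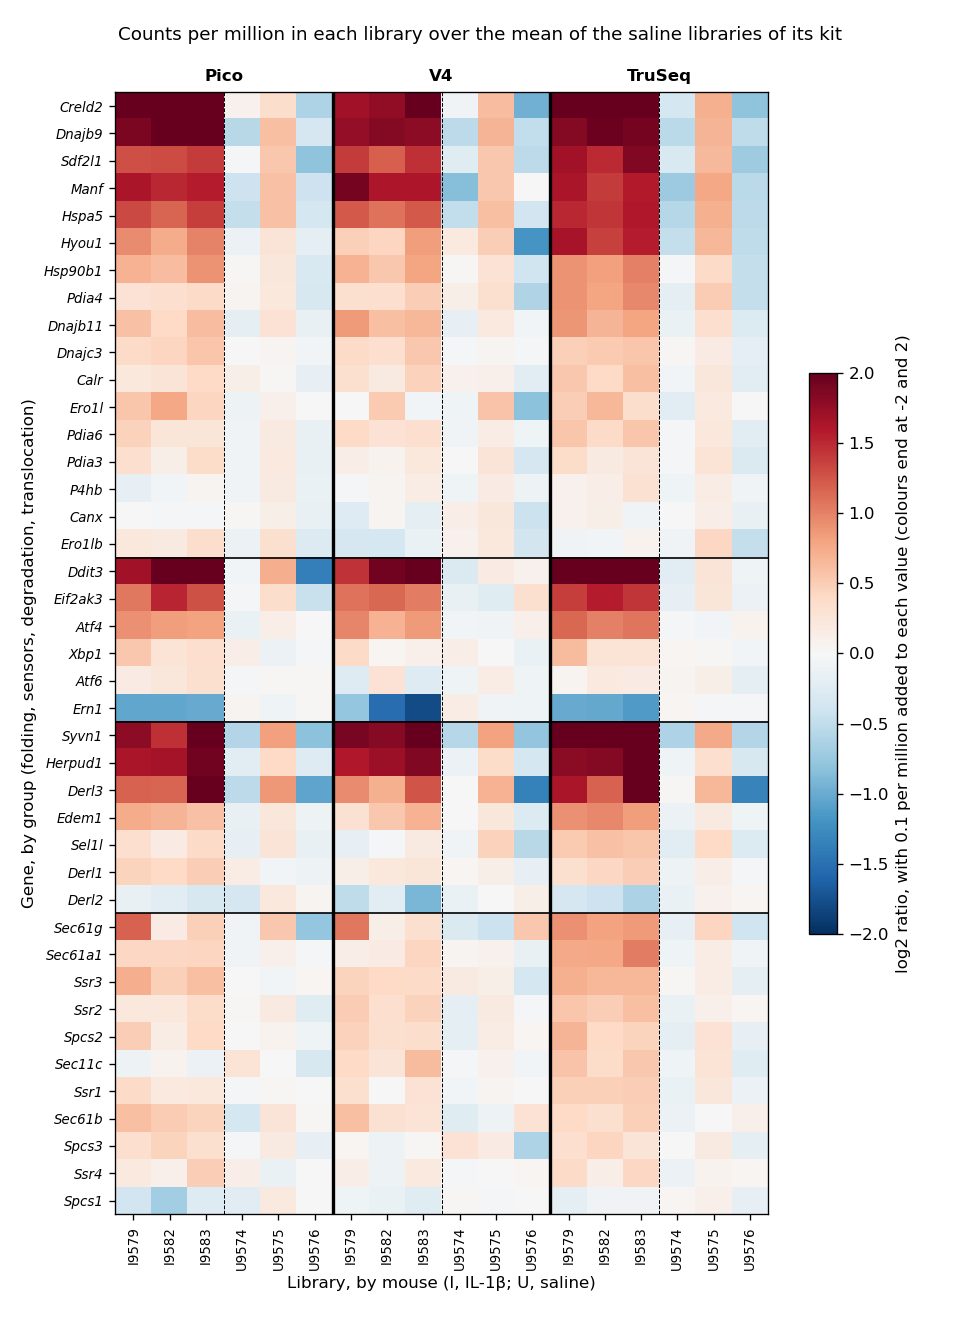
Heat map of the 41 genes (rows, by group and by TruSeq response) in the 18 libraries (columns, by kit and mouse), where colour is the log2 ratio of library-scaled counts to the mean of the 3 saline libraries of the same kit. The IL-1β columns are red for most folding and degradation genes in each kit, Ern1 is blue, and among the saline columns U9575 is the reddest for most genes.

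The first question was which of these genes differed between IL-1β and saline mice within each kit. After IL-1β, 32 of the 41 members rose and 2 fell in TruSeq, 22 rose and 1 fell in Pico, and 12 rose and 1 fell in V4 (limma-voom, Benjamini-Hochberg adjusted p of at most 0.05 over all genes). Log2 fold changes are IL-1β over saline with 3 mice each and, where an error is given, ± its standard error. Over all genes tested, 12.3% were called higher and 21.8% lower in TruSeq, 6.78% and 10.8% in Pico, and 3.6% and 7.41% in V4. The median log2 fold change of the members was 0.55 in TruSeq, 0.45 in Pico and 0.42 in V4, where the median over all genes was -0.17, -0.12 and -0.22. The libraries of IL-1β mice all lay above those of saline mice, in CPM, for 33 members in TruSeq, 30 in Pico and 23 in V4, and this held for 17.1%, 12.6% and 9.09% of all genes.

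The 12 members that rose in all 3 kits were Hspa5, Hsp90b1, Creld2, Sdf2l1, Manf, Dnajb9 and Dnajb11 of the folding group, the stress genes Atf4, Ddit3 and Eif2ak3, and Herpud1 and Syvn1 of the degradation group. Of the 16184 genes in all 3 tables, 3.05% were called higher in each kit and 5.35% lower in each kit. Ern1 was the only member called lower in all 3 kits. A further 10 members rose in 2 kits and 10 in TruSeq alone, Derl2 fell in TruSeq alone, and Canx, Pdia3, P4hb, Ero1lb, Atf6, Ssr4 and Spcs1 were called in no kit. Without mouse U9575, 32 members were called higher in TruSeq, 22 in Pico and 10 in V4, and the median log2 fold change was 0.68, 0.47 and 0.46. Over all genes, 1895 of 19156 were then called higher in TruSeq, 971 of 17884 in Pico and 341 of 17712 in V4. Leaving this mouse out raised the log2 fold change of 39 members in TruSeq, 36 in Pico and 33 in V4, with a largest shift of 0.47 (Manf in TruSeq), 0.55 (Derl3 in Pico) and 0.49 (Syvn1 in V4). These shifts follow from its high saline levels given above and are no separate result. No call changed its sign when any single mouse was left out. The number called higher in TruSeq was lowest, 21, without saline mouse U9574, where 1809 of 19130 genes were called higher.

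With TMM scaling factors in place of the library totals, the median log2 fold change over all genes moved up by 0.16 in TruSeq, 0.13 in Pico and 0.17 in V4. Under this scaling 35 members rose and 1 fell in TruSeq, 29 rose and 1 fell in Pico, and 17 rose and 0 fell in V4. Over all genes, 16.7%, 9.16% and 4.79% were then called higher and 16.1%, 8.16% and 4.84% lower. Higher calls made up 36% of all calls in TruSeq, 38.6% in Pico and 32.7% in V4 with library totals, and 50.9%, 52.9% and 49.7% with TMM factors.

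**Figure D2:**
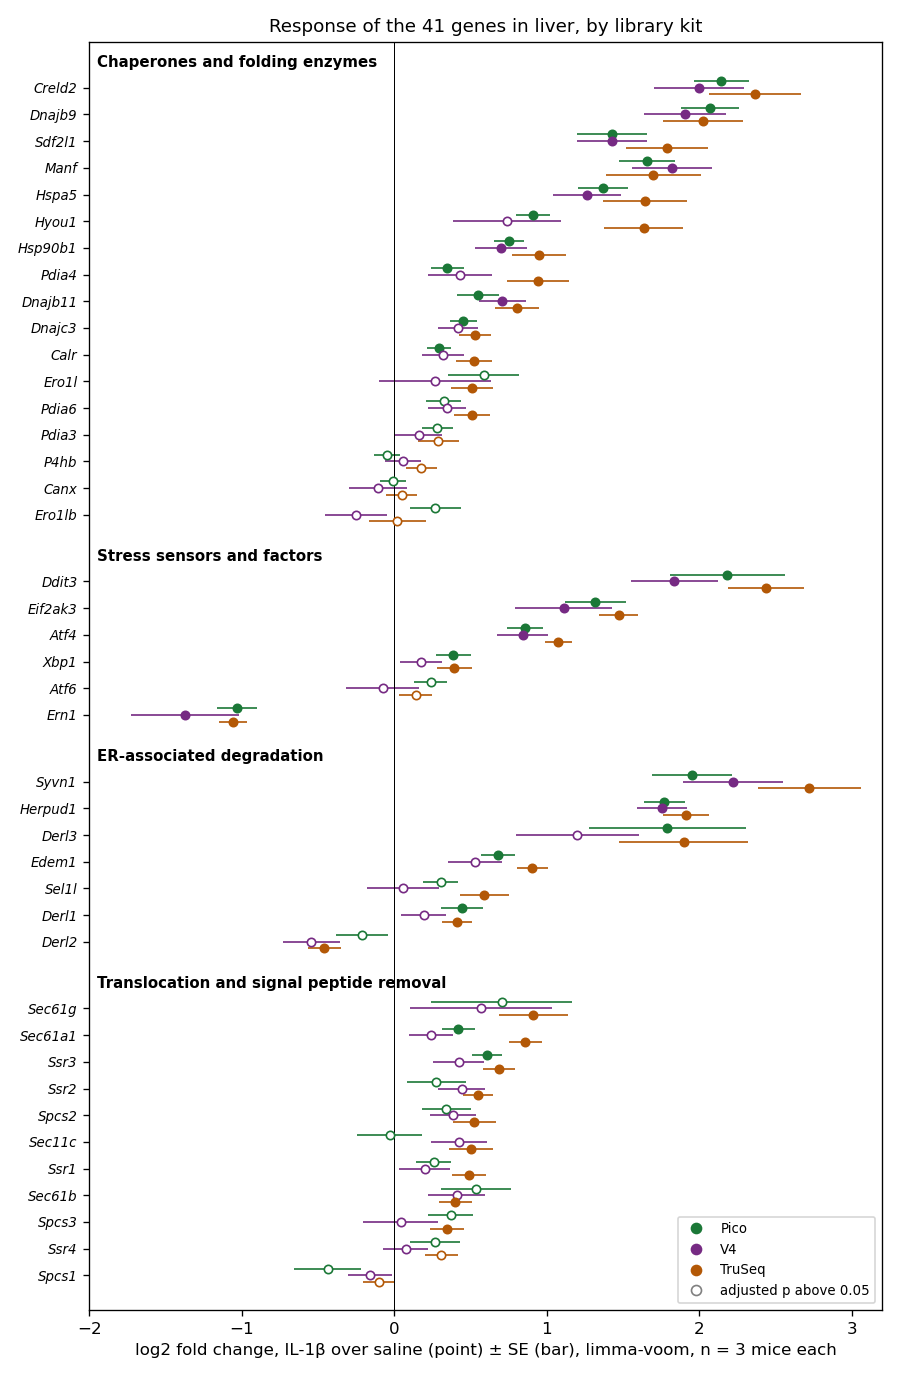
Log2 fold change of each of the 41 genes (points) with its standard error (bars) in Pico, V4 and TruSeq, from limma-voom with 3 mice per treatment, with open points above an adjusted p of 0.05. Creld2, Dnajb9, Ddit3, Syvn1 and Herpud1 lie at 1.76 or above in all kits, Ern1 lies at -1.03 or below in all kits, and the translocation group lies between -0.44 and 0.91.

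Positions given with a gene are those of the mm9 annotation, with the number of separate exon blocks. Among the 17 chaperones and folding enzymes, 13 rose in TruSeq, 11 in Pico and 7 in V4, and none fell. Their median log2 fold change was 0.81 in TruSeq, 0.55 in Pico and 0.44 in V4. Creld2 (chr15:88650076-88657111, plus strand, 10 exon blocks), a secreted and ER-resident factor with disulfide isomerase activity, led the group in TruSeq. Creld2 had 4506, 4191 and 5619 TruSeq counts after IL-1β and 814, 1726 and 602 after saline. Pico counts of Creld2 were 1268, 1264 and 1551 against 343, 416 and 212, and V4 counts were 9586, 10217 and 12902 against 2829, 4577 and 1557. The IL-1β libraries were all above the saline libraries, and U9575 was the highest saline library in each kit. For Creld2, the log2 fold change was 2.37 ± 0.30 in TruSeq (adjusted p = 0.000329), 2.15 ± 0.18 in Pico (adjusted p = 4.63e-07) and 1.998 ± 0.30 in V4 (adjusted p = 0.00196). Without U9575 the log2 fold change of Creld2 was 2.80 in TruSeq, 2.35 in Pico and 2.38 in V4. Dnajb9 (ERdj4) is a co-chaperone of BiP that also restrains IRE1α. Dnajb9 had 3715, 4018 and 3923 TruSeq counts after IL-1β and 729, 1716 and 757 after saline. Pico counts of Dnajb9 were 1382, 1532 and 1496 against 257, 579 and 301, and V4 counts were 1771, 1854 and 1791 against 360, 830 and 377. The groups did not overlap in any kit, and U9575 had more than the other saline mice while staying below each IL-1β mouse. For Dnajb9, the log2 fold change was 2.03 ± 0.26 in TruSeq (adjusted p = 0.000359), 2.07 ± 0.19 in Pico (adjusted p = 1.23e-06) and 1.91 ± 0.27 in V4 (adjusted p = 0.00147). Its values without U9575 were 2.43, 2.42 and 2.30 in the same order.

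Sdf2l1 is a component of the BiP chaperone complex that keeps BiP clients from aggregating. Sdf2l1 had 1260, 1090 and 1408 TruSeq counts after IL-1β and 323, 635 and 248 after saline. Pico counts of Sdf2l1 were 354, 358 and 383 against 142, 216 and 85, and V4 counts were 4417, 3811 and 4544 against 1389, 2427 and 1185. IL-1β and saline libraries were fully apart in each kit. For Sdf2l1, the log2 fold change was 1.79 ± 0.27 in TruSeq (adjusted p = 0.000816), 1.43 ± 0.23 in Pico (adjusted p = 0.000337) and 1.43 ± 0.23 in V4 (adjusted p = 0.0031). Without U9575 the log2 fold change of Sdf2l1 was 2.18 in TruSeq, 1.75 in Pico and 1.74 in V4. Manf encodes an ER-resident and secreted protein that binds BiP and protects stressed cells. Manf had 4724, 4009 and 4560 TruSeq counts after IL-1β and 938, 2686 and 1091 after saline. Pico counts of Manf were 1452, 1320 and 1386 against 351, 713 and 356, and V4 counts were 10239, 8284 and 8301 against 1492, 3922 and 2741. The IL-1β libraries were again all higher, and U9575 was the nearest saline mouse. For Manf, the log2 fold change was 1.70 ± 0.31 in TruSeq (adjusted p = 0.00236), 1.66 ± 0.18 in Pico (adjusted p = 8.37e-06) and 1.82 ± 0.26 in V4 (adjusted p = 0.00171). Its values without U9575 were 2.17, 1.99 and 2.15 in the same order. In the unstranded V4 libraries the exons of Manf share 146 bases with Vprbp on the opposite strand, so reads there cannot be assigned to one of the genes.

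Hspa5 (chr2:34627490-34632051, plus strand, 6 exon blocks) encodes BiP, the main Hsp70 chaperone of the ER lumen, which also holds the stress sensors inactive. Hspa5 had 46112, 43309 and 48875 TruSeq counts after IL-1β and 11074, 27115 and 11682 after saline. Pico counts of Hspa5 were 13149, 11771 and 13701 against 3823, 8008 and 4214, and V4 counts were 43294, 38797 and 42619 against 12988, 27960 and 14339. Every IL-1β library was above every saline library, and U9575 stood near the middle of the gap. For Hspa5, the log2 fold change was 1.64 ± 0.28 in TruSeq (adjusted p = 0.00147), 1.37 ± 0.16 in Pico (adjusted p = 1.86e-05) and 1.27 ± 0.22 in V4 (adjusted p = 0.00499). Without U9575, the log2 fold change of Hspa5 was 2.06 in TruSeq, 1.70 in Pico and 1.61 in V4. Hyou1 (Grp170), the nucleotide exchange factor of BiP, was one of the genes that the study measured by RT-PCR. The study picked those genes in mouse I9579 because 1 kit differed from the others in showing them as high or absent. Hyou1 had 14197, 11734 and 13557 TruSeq counts after IL-1β and 3344, 7395 and 3306 after saline. Pico counts of Hyou1 were 3152, 2723 and 3258 against 1515, 2000 and 1475, and V4 counts were 635, 612 and 806 against 518, 642 and 205. The groups were apart in Pico and TruSeq and overlapped in V4, where U9576 was the lowest library and U9575 lay among the IL-1β mice. For Hyou1, the log2 fold change was 1.64 ± 0.26 in TruSeq (adjusted p = 0.00104), 0.91 ± 0.11 in Pico (adjusted p = 2.47e-05) and 0.74 ± 0.35 in V4 (adjusted p = 0.222). Without U9575 the log2 fold change of Hyou1 was 2.02 in TruSeq, 1.05 in Pico and 1.07 in V4. Hyou1 was also the member with the lowest ratio of V4 to TruSeq, 0.072 in CPM.

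Hsp90b1 (Grp94), the Hsp90 of the ER, and Dnajb11 (ERdj3), another BiP co-chaperone, rose in all 3 kits, with log2 fold changes of 0.70 to 0.95 and 0.55 to 0.81. In V4 the call of Hsp90b1 was lost without U9574, I9579, I9582 or I9583 and that of Dnajb11 without U9574, I9579 or I9583, and in Pico that of Dnajb11 was lost without U9574, U9576, I9579 or I9583. Calr, Pdia4 and Dnajc3 rose in Pico and TruSeq, with 0.30 to 0.45 in Pico and 0.52 to 0.94 in TruSeq. The Pico call of Pdia4 was lost when any single mouse but U9575 was left out, and that of Calr without U9575, U9576, I9582 or I9583. In TruSeq the call of Pdia4 was lost without U9574. Calreticulin, the product of Calr, is a lectin chaperone of glycoproteins, and Dnajc3 (p58IPK) is a co-chaperone that restrains PERK. The disulfide isomerase gene Pdia6 and the oxidase gene Ero1l, which re-oxidises such isomerases, rose in TruSeq alone (0.51 each). The call of Pdia6 was lost without U9574, and that of Ero1l without U9574, U9576, I9579 or I9582. Canx, P4hb, Pdia3 and Ero1lb were called in no kit. P4hb, the classical protein disulfide isomerase, had 19426, 19964 and 22710 TruSeq counts after IL-1β and 17558, 20985 and 17990 after saline, so that the groups overlapped. In CPM per kilobase of exon, P4hb was the highest of the 41 genes in saline livers, at 516 ± 49.8 in TruSeq (SD, n = 3), followed by Hspa5 at 370 ± 202. After IL-1β the level of Hspa5 was 1059 ± 61.6 and that of P4hb 584 ± 49.4, which put Hspa5 first in TruSeq. It was also first in Pico (908 ± 68.2), while in V4 Herpud1 (1170 ± 103) was above Hspa5 (978 ± 54.1).

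Of the 6 stress sensors and transcription factors, Ddit3, Eif2ak3 and Atf4 rose in all 3 kits, Xbp1 rose in Pico and TruSeq, Ern1 fell in all 3, and Atf6 was called in none. Ddit3 (chr10:126727830-126733344, plus strand, 4 exon blocks) encodes CHOP, the transcription factor downstream of ATF4. Ddit3 had 272, 364 and 479 TruSeq counts after IL-1β and 59, 83 and 65 after saline. Pico counts of Ddit3 were 116, 149 and 161 against 35, 61 and 14, and V4 counts were 328, 453 and 502 against 96, 132 and 129. No saline library reached an IL-1β library, and the saline counts were 14 to 132. For Ddit3, the log2 fold change was 2.44 ± 0.25 in TruSeq (adjusted p = 9.08e-05), 2.19 ± 0.38 in Pico (adjusted p = 0.000592) and 1.84 ± 0.29 in V4 (adjusted p = 0.00258). Exons of Ddit3 share 68 bases with Mars on the opposite strand, which V4 counts together.

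Eif2ak3 encodes PERK, the kinase that slows translation by phosphorylating eIF2α. Eif2ak3 had 705, 797 and 726 TruSeq counts after IL-1β and 245, 328 and 258 after saline. Pico counts of Eif2ak3 were 306, 418 and 355 against 146, 191 and 110, and V4 counts were 146, 152 and 138 against 61, 57 and 87. IL-1β libraries were above saline libraries in each kit. For Eif2ak3, the log2 fold change was 1.47 ± 0.13 in TruSeq (adjusted p = 3.71e-05), 1.32 ± 0.20 in Pico (adjusted p = 0.000187) and 1.11 ± 0.32 in V4 (adjusted p = 0.047). In V4 its call was lost whenever any mouse but U9576 was left out, and without U9575 the value was 0.998. Atf4 is the factor whose mRNA is translated when eIF2α is phosphorylated. Atf4 had 2429, 2179 and 2276 TruSeq counts after IL-1β and 1087, 1085 and 1187 after saline. Pico counts of Atf4 were 880, 834 and 816 against 430, 522 and 474, and V4 counts were 1464, 1200 and 1335 against 711, 709 and 814. The IL-1β counts did not overlap the saline counts, and U9575 was not apart from the other saline mice in V4 and TruSeq. For Atf4, the log2 fold change was 1.08 ± 0.091 in TruSeq (adjusted p = 3.1e-05), 0.86 ± 0.12 in Pico (adjusted p = 7.66e-05) and 0.84 ± 0.17 in V4 (adjusted p = 0.00886). Its values without U9575 were 1.05, 0.93 and 0.81 in the same order, and the V4 call of Atf4 was lost without that mouse.

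Ern1 (chr11:106255964-106349166, minus strand, 22 exon blocks) encodes IRE1α, the kinase and endoribonuclease that splices Xbp1 mRNA. Ern1 had 680, 663 and 621 TruSeq counts after IL-1β and 1433, 1381 and 1387 after saline. Pico counts of Ern1 were 281, 279 and 288 against 606, 557 and 603, and V4 counts were 89, 52 and 43 against 168, 145 and 147. The direction was opposite to that of most members, with each IL-1β library below each saline library, and the saline mice lay close together. For Ern1, the log2 fold change was -1.05 ± 0.091 in TruSeq (adjusted p = 3.61e-05), -1.03 ± 0.13 in Pico (adjusted p = 3.1e-05) and -1.37 ± 0.35 in V4 (adjusted p = 0.0313). In V4, where Ern1 had 43 to 168 counts per library, TMM factors gave an adjusted p of 0.0584 for a log2 fold change of -1.20, and the call was lost without U9574, U9575, I9582 or I9583. In Pico and TruSeq the call held under each alternative that was run. Xbp1 is the target of IRE1α, and gene counts do not separate its spliced from its unspliced form. Xbp1 had 5815, 4486 and 4539 TruSeq counts after IL-1β and 3897, 3919 and 3722 after saline. Pico counts of Xbp1 were 1066, 881 and 915 against 809, 686 and 729, and V4 counts were 8720, 6793 and 7116 against 7246, 6624 and 6177. I9579 was the highest library in each kit, and in V4 the groups overlapped. For Xbp1, the log2 fold change was 0.40 ± 0.11 in TruSeq (adjusted p = 0.0216), 0.39 ± 0.12 in Pico (adjusted p = 0.0285) and 0.18 ± 0.14 in V4 (adjusted p = 0.502). The Pico and TruSeq calls of Xbp1 were lost when single mice were left out, U9575 among them (adjusted p = 0.112 in Pico and 0.0643 in TruSeq).

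Atf6 encodes the sensor that is cut in the Golgi to release a transcription factor. Atf6 had 1638, 1786 and 1756 TruSeq counts after IL-1β and 1674, 1757 and 1425 after saline. Pico counts of Atf6 were 709, 739 and 789 against 619, 656 and 654, and V4 counts were 237, 343 and 235 against 265, 314 and 271. The groups overlapped in V4 and TruSeq. For Atf6, the log2 fold change was 0.14 ± 0.11 in TruSeq (adjusted p = 0.361), 0.24 ± 0.11 in Pico (adjusted p = 0.165) and -0.073 ± 0.24 in V4 (adjusted p = 0.877). With TMM factors the Pico value of Atf6 was 0.37 (adjusted p = 0.0291), and in V4 its sign changed to 0.096 (adjusted p = 0.834).

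**Figure D3:**
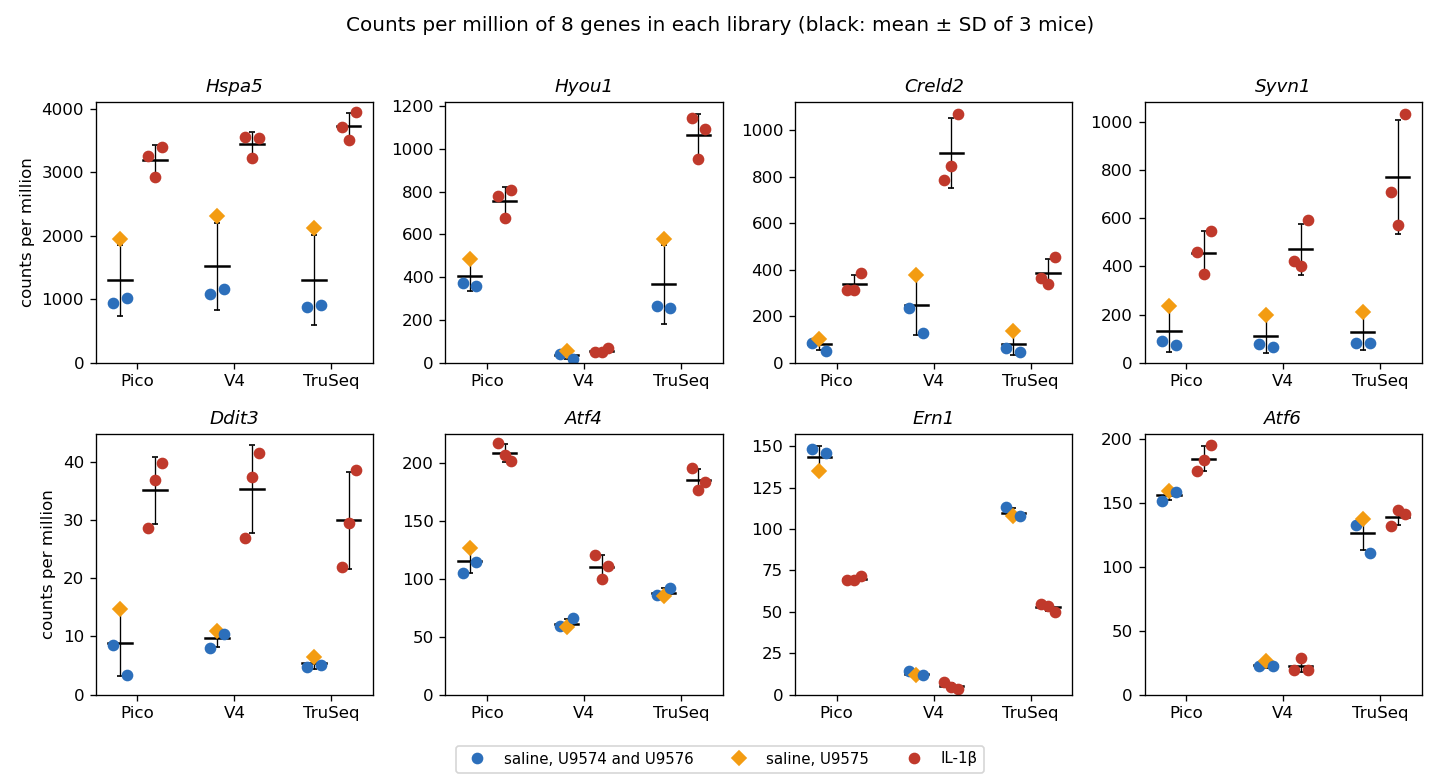
CPM of 8 genes in each library of the 3 kits, with the mean and SD of 3 mice in black. Red points (IL-1β) lie above blue points (U9574 and U9576) for Hspa5, Creld2, Syvn1, Ddit3 and Atf4 and below them for Ern1, and the orange diamond (U9575) lies between them for Hspa5, Creld2, Syvn1 and Ddit3 in each kit.

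Of the 7 genes of ER-associated degradation, 6 rose and Derl2 fell in TruSeq, 5 rose in Pico and 2 rose in V4, and their median log2 fold change was 0.91, 0.68 and 0.53. Syvn1 (chr19:6046576-6053712, plus strand, 9 exon blocks), the Hrd1 ligase that tags misfolded proteins with ubiquitin, had the largest TruSeq value of the 41 genes. Syvn1 had 8833, 7053 and 12830 TruSeq counts after IL-1β and 1034, 2721 and 1078 after saline. Pico counts of Syvn1 were 1853, 1475 and 2208 against 363, 968 and 312, and V4 counts were 5126, 4825 and 7122 against 919, 2390 and 804. The groups did not overlap in any kit, and U9575 had more counts than the other saline mice in each kit. For Syvn1, the log2 fold change was 2.72 ± 0.34 in TruSeq (adjusted p = 0.000274), 1.95 ± 0.26 in Pico (adjusted p = 6.06e-05) and 2.22 ± 0.33 in V4 (adjusted p = 0.00196). Without U9575 these values were 3.18, 2.46 and 2.71. Herpud1 (chr8:96910338-96919277, plus strand, 10 exon blocks), an ER membrane protein that recruits Hrd1 substrates and carries both ERSE-II and the ATF4 element in its promoter window, was the degradation gene with the most counts. Herpud1 had 20013, 20455 and 23325 TruSeq counts after IL-1β and 5507, 7445 and 4733 after saline. Pico counts of Herpud1 were 4535, 4632 and 5556 against 1263, 1964 and 1247, and V4 counts were 30569, 32485 and 35993 against 9124, 12882 and 7961. The IL-1β libraries were all higher. For Herpud1, the log2 fold change was 1.92 ± 0.15 in TruSeq (adjusted p = 2.08e-05), 1.77 ± 0.13 in Pico (adjusted p = 1.63e-07) and 1.76 ± 0.16 in V4 (adjusted p = 0.000106). Its values without U9575 were 2.10, 1.99 and 1.96 in the same order. Exons of Syvn1 share 83 bases with Mrpl49 on the opposite strand, which matters in V4 alone.

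Edem1 helps to draw misfolded glycoproteins out of the folding cycle by mannose trimming. Edem1 had 5435, 5563 and 5130 TruSeq counts after IL-1β and 2703, 3383 and 2816 after saline. Pico counts of Edem1 were 1550, 1473 and 1397 against 846, 1102 and 880, and V4 counts were 2160, 2522 and 2814 against 1729, 2036 and 1467. The groups did not overlap in any kit, although the V4 gap was small. For Edem1, the log2 fold change was 0.91 ± 0.10 in TruSeq (adjusted p = 0.000166), 0.68 ± 0.11 in Pico (adjusted p = 0.00039) and 0.53 ± 0.18 in V4 (adjusted p = 0.0808). Derl1 and Derl3, which encode membrane proteins of the retrotranslocation site, rose in Pico (0.45 and 1.79) and TruSeq (0.41 and 1.90). Derl3 was a gene of few counts, with 9 to 96 per Pico library. In Pico the call of Derl3 was lost when any single mouse but U9575 was left out, and that of Derl1 when any but U9574 was. The TruSeq call of Derl3 was lost without U9574. Derl2, their relative, fell in TruSeq, with 1130, 1071 and 923 counts after IL-1β and 1329, 1556 and 1529 after saline (log2 fold change -0.46 ± 0.11, adjusted p = 0.0101), and with TMM factors the value was -0.30 (adjusted p = 0.0602). Its exons share 231 bases with Mis12 on the opposite strand. Sel1l, the scaffold partner of Hrd1, rose in TruSeq alone (0.59 ± 0.16, adjusted p = 0.0178), with U9575 at 4174 counts close to the 4414 to 4598 of the IL-1β mice, and its call was lost when any single mouse but U9575 was left out.

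The 11 genes of translocation and signal peptide removal had smaller values. In TruSeq 9 rose, in Pico Sec61a1 and Ssr3 rose, in V4 none was called, and none fell in any kit. Their median log2 fold change was 0.50, 0.34 and 0.39. Sec61a1 encodes the pore of the Sec61 channel. Sec61a1 had 4219, 4240 and 5083 TruSeq counts after IL-1β and 2379, 2837 and 2464 after saline. Pico counts of Sec61a1 were 840, 828 and 843 against 605, 685 and 623, and V4 counts were 3630, 3677 and 4409 against 3396, 3483 and 3044. The IL-1β libraries were all above the saline libraries in CPM, by a narrow margin in V4. For Sec61a1, the log2 fold change was 0.86 ± 0.11 in TruSeq (adjusted p = 0.000312), 0.42 ± 0.11 in Pico (adjusted p = 0.0126) and 0.24 ± 0.14 in V4 (adjusted p = 0.344). Ssr3 encodes a subunit of the translocon-associated protein complex beside the channel. Ssr3 had 6511, 6262 and 6255 TruSeq counts after IL-1β and 4120, 4530 and 3573 after saline. Pico counts of Ssr3 were 1785, 1493 and 1634 against 1089, 1055 and 1128, and V4 counts were 2523, 2419 and 2411 against 2080, 1999 and 1485. IL-1β libraries were all higher, and U9575 was not the highest saline mouse in Pico and V4. For Ssr3, the log2 fold change was 0.69 ± 0.10 in TruSeq (adjusted p = 0.00076), 0.61 ± 0.10 in Pico (adjusted p = 0.000378) and 0.42 ± 0.17 in V4 (adjusted p = 0.139). Ssr2 encodes another subunit of that complex. Ssr2 had 1367, 1308 and 1412 TruSeq counts after IL-1β and 863, 1027 and 988 after saline. Pico counts of Ssr2 were 140, 139 and 155 against 124, 139 and 104, and V4 counts were 2428, 2149 and 2352 against 1486, 1941 and 1713. The saline mouse U9575 came next to the IL-1β mice in each kit. For Ssr2, the log2 fold change was 0.55 ± 0.10 in TruSeq (adjusted p = 0.00201), 0.28 ± 0.19 in Pico (adjusted p = 0.391) and 0.44 ± 0.15 in V4 (adjusted p = 0.0938).

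Of the other translocation genes, Sec61b, Sec61g, Ssr1, Spcs2, Spcs3 and Sec11c rose in TruSeq alone, with log2 fold changes of 0.35 to 0.91. Sec61b and Sec61g encode the small subunits of the channel, and Spcs2, Spcs3 and Sec11c subunits of the signal peptidase. Sec61g had 31 to 76 counts per TruSeq library and was the lowest of the 41 genes per kilobase there. Ssr4 and Spcs1 were called in no kit. Spcs1 had 92, 74 and 101 Pico counts after IL-1β and 104, 141 and 123 after saline, and its TruSeq groups overlapped. The TruSeq call of Spcs3 was lost when any single mouse but U9575 was left out, and that of Sec11c without U9574, U9576, I9579 or I9583. Sec61b, Sec61g and Spcs2 also lost their TruSeq calls without U9574, among other mice.

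The share of all gene counts that fell on the 41 genes describes the sum of these responses, with no test. It was 2.05%, 1.94% and 2.18% in the TruSeq libraries of the IL-1β mice and 1.005%, 1.4% and 0.920% in those of the saline mice. In Pico it was 1.94%, 1.85% and 2.09% against 1.20%, 1.47% and 1.09%, and in V4 1.75%, 1.69% and 1.87% against 0.990%, 1.29% and 0.8965%. The IL-1β libraries lay above all saline libraries in each kit, with ratios of the means of 1.86 in TruSeq, 1.57 in Pico and 1.67 in V4, and of 2.14, 1.72 and 1.88 without U9575. The degradation group had the largest ratio in each kit (2.71, 2.17 and 2.5). The sensor group had ratios of 1.33, 1.29 and 1.22, and in it the TruSeq shares of U9574, U9575 and U9576 were 0.0663%, 0.0668% and 0.0626%.

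**Figure D4:**
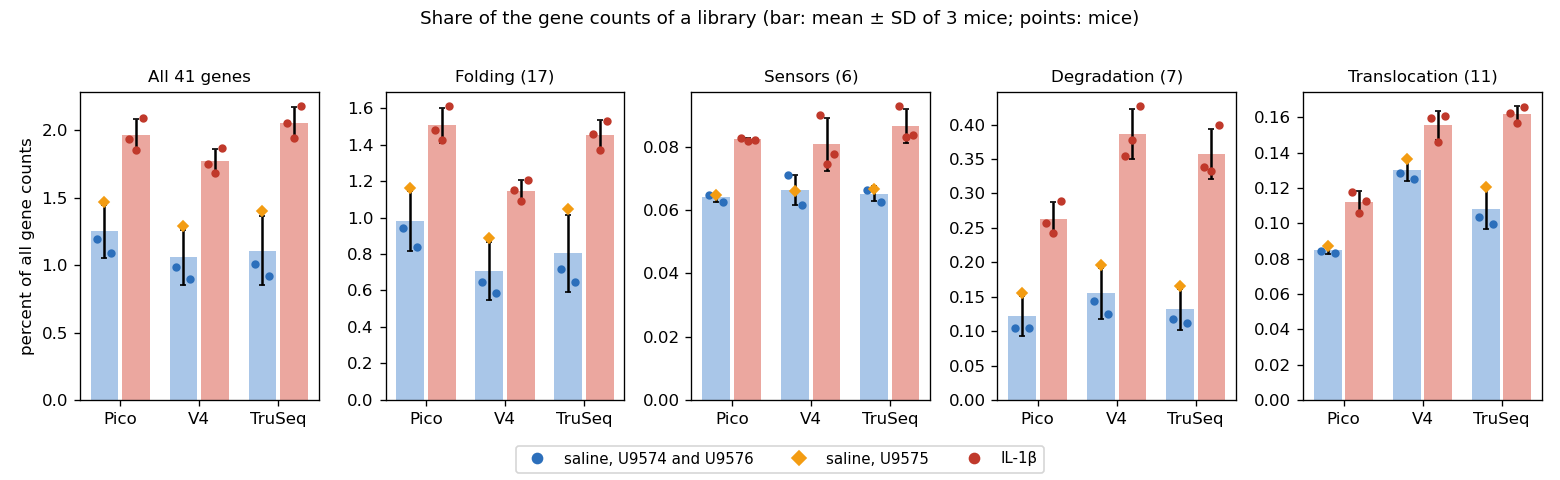
Percent of all gene counts of a library that fell on the 41 genes and on each of their groups, with bars for the mean and SD of 3 mice and points for the mice, by kit. Each panel has its own axis from 0. The IL-1β points lie above the saline points in every panel and kit, and the orange diamond (U9575) is the highest saline point for the folding and degradation groups.

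The second question was whether the response differed between kits, which a call in one kit and none in another does not show. Between TruSeq and the other kits, read length and sequencer differed as well, and these cannot be told apart from the kit. Of the 41 members, 0 were called for a difference of Pico from TruSeq, 0 for a difference of V4 from TruSeq and 0 for Pico against V4 (limma-voom interaction of kit and treatment), where the calls over all genes were 0.0%, 0.0% and 0.0%. At an unadjusted p under 0.05 there were 3, 1 and 0 members, of 945, 1090 and 900 genes, and DESeq2 called 0 members in each pair. Over all genes, DESeq2 called 4 of 17207, 62 of 17147 and 14 of 16395 in the same order. The difference in log2 fold change was below 0 for 32 members in Pico against TruSeq and for 39 in V4 against TruSeq, with medians of -0.19 and -0.23. The standard error of a single difference had a median of 0.21 and 0.23, and the TruSeq values enter both comparisons. Since the kits share mice, the same differences were also fitted with the mouse as a replicate block. This fit called 0 members as well, and over all genes it called 1, 0 and 0 in the same order. At an unadjusted p under 0.05 it had 13 members for Pico against TruSeq (31.7%, against 7.43% of all genes), 16 for V4 against TruSeq (39%, against 7.37%) and 1 for Pico against V4 (2.44%, against 6.23%). Without the block these shares were 7.32%, 2.44% and 0.0% of the members and 5.49%, 6.36% and 5.49% of all genes.

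Without the block, Sec61a1 had the smallest p of the members in both comparisons with TruSeq. Its log2 fold change was lower by 0.44 in Pico (95% interval of the difference -0.75 to -0.12, adjusted p = 0.9) and lower by 0.62 in V4 (-0.99 to -0.24, adjusted p = 0.41). For Hyou1 the difference was -0.73 in Pico (-1.38 to -0.084, adjusted p = 0.9) and -0.90 in V4 (-1.96 to 0.17, adjusted p = 0.867). The block fit gave Hyou1 -0.67 ± 0.15 (adjusted p = 0.422) in Pico and -0.94 ± 0.26 (adjusted p = 0.493) in V4. With the block, Syvn1 had the smallest p for Pico against TruSeq, with a difference of -0.82 ± 0.12 (standard error, adjusted p = 0.132) in place of -0.77 ± 0.50 (adjusted p = 0.923). Sec61a1 remained first for V4 against TruSeq, at -0.62 ± 0.099 (adjusted p = 0.407). Between Pico and V4 the smallest p belonged to Ero1lb, an oxidase gene called in no kit. Ero1lb had 1311, 1319 and 1445 TruSeq counts after IL-1β and 1339, 1898 and 1028 after saline. Pico counts of Ero1lb were 309, 301 and 338 against 247, 338 and 226, and V4 counts were 553, 544 and 628 against 732, 804 and 549. U9575 was the highest saline mouse of Ero1lb in each kit and the groups overlapped. The difference for Ero1lb was 0.52 (-0.055 to 1.099, adjusted p = 0.921). The intervals without the block also hold the spread between the mice that the kits share. These intervals include differences as large as many of the responses, so the kits cannot be called alike for these genes.

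The kits counted the members at different levels. In ratios to TruSeq, the kit cannot be told apart from read length and sequencer. The ratio of V4 to TruSeq, as the mean over 6 mice of CPM, ran from 0.072 for Hyou1, 0.10 for Ern1, 0.17 for Atf6 and 0.23 for Eif2ak3 to 3.96 for Sdf2l1 and 4.18 for Sec61b. Among these extremes, low ratios went with long annotated exons and high ratios with short ones: Hyou1 has 7230 bases, Ern1 8173, Atf6 7463, Sdf2l1 1108 and Sec61b 1271. Other members departed from this, such as Derl2 (8049 bases, ratio 1.48) and Dnajb9 (1865 bases, ratio 0.496). Over the 41 members the log2 ratio had a Spearman correlation of -0.683 with exon length for V4 over TruSeq and 0.157 for Pico over TruSeq. This is a description over genes that share their libraries. For Pico over TruSeq the ratio ran from 0.36 for Ssr2 to 1.85 for Pdia4. The sensors Ern1, Atf6 and Eif2ak3, with 43 to 343 V4 counts per library, were thus measured at a small depth in V4, and the standard errors of their V4 fold changes were 0.24 to 0.35.

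**Figure D5:**
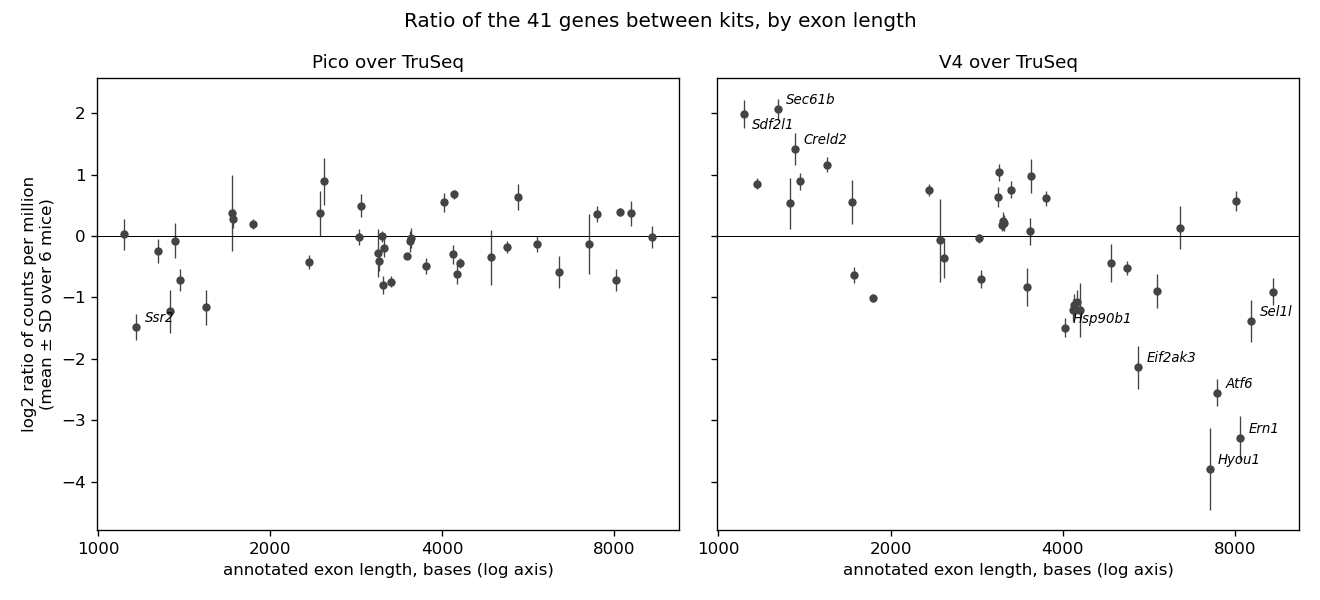
Log2 ratio of CPM between kits (mean and SD over 6 mice) against annotated exon length on a log axis for the 41 genes, with Pico over TruSeq on the left and V4 over TruSeq on the right. The V4 points run from 2.06 for Sec61b to -3.79 for Hyou1 and tend to be lower for longer genes, with exceptions such as Derl2. The Pico points stay between -1.48 and 0.89.

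The members with ERSE in the promoter window were called higher in 8 of 10 cases in TruSeq, 7 in Pico and 4 in V4, and those with a window but no ERSE in 17 of 23, 11 and 7. Their median log2 fold changes were 0.74, 0.60 and 0.56 with ERSE and 0.59, 0.54 and 0.41 without. Canx and Ero1lb hold the element and were called in no kit, while Dnajb9, Sdf2l1 and Ddit3 have a window without it and rose in all 3. Members that rose and members that were not called thus occur on both sides.

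Other textbook genes of the same pathways, which are not among the 41, were put in lists of their own. Their higher calls are to be read against the 12.3%, 6.78% and 3.6% of all genes called higher in TruSeq, Pico and V4. Of 25 other folding genes tested, 3 rose and 2 fell in TruSeq, 2 rose and 1 fell in Pico, and 1 rose and 1 fell in V4, with medians of -0.012, -0.035 and -0.11, so that the share called higher in TruSeq (12%) was that of all genes. Of 26 other translocation and glycosylation genes, 10 rose and 3 fell in TruSeq, 3 rose in Pico and, of 25 tested, 1 rose in V4. Of 22 other degradation genes, 9 rose and 3 fell in TruSeq, 4 rose in Pico, and 2 rose and 2 fell in V4. Of the other stress signalling genes, 13 of 26 rose and 2 fell in TruSeq, 7 of 25 rose and 2 fell in Pico, and 6 of 25 rose and 1 fell in V4. The shares called higher in TruSeq were 38.5% for translocation, 40.9% for degradation and 50% for signalling. With TMM factors the TruSeq calls were 6 higher and 1 lower for folding, 15 and 0 for translocation, 11 and 1 for degradation, and 14 and 1 for signalling. The Pico calls higher were then 3, 7, 8 and 9, and V4 had 2 higher and 1 lower, 1 and 0, 5 and 0, and 8 and 0, in the same order of lists. The 41 genes were listed with earlier results of these data known, and their calls are set beside those of the other lists without a test.

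In these lists 8 genes rose in all 3 kits. They were Ddit4, Creb3l1, Nupr1, Chac1 and Creb3l2 of stress signalling, Txndc11 of folding, Selk of degradation and Srp19 of translocation. These are 5 of the 25 signalling genes tested in V4, and 1 each of 25 folding, 22 degradation and 25 translocation genes. Of the genes in all 3 tables, 3.05% were called higher in each kit, and the lists with 1 such gene are near that share. Ddit4 (REDD1) restrains mTORC1 and is a target of ATF4. Ddit4 had 1113, 810 and 1035 TruSeq counts after IL-1β and 56, 100 and 107 after saline. Pico counts of Ddit4 were 174, 149 and 185 against 19, 21 and 9, and V4 counts were 435, 295 and 307 against 10, 18 and 29. Every IL-1β library was higher, and the saline counts were 9 to 107. For Ddit4, the log2 fold change was 3.57 ± 0.23 in TruSeq (adjusted p = 7.42e-06), 3.44 ± 0.39 in Pico (adjusted p = 9.73e-06) and 4.25 ± 0.53 in V4 (adjusted p = 0.000689). Creb3l1 and Creb3l2 encode ER-anchored factors that are activated by cleavage as ATF6 is. Creb3l3 of the same list went the other way. Its log2 fold change was -0.66 in Pico (adjusted p = 0.00104) and -0.67 in V4 (adjusted p = 0.0251). In TruSeq Creb3l3 was at -0.38 and not called (adjusted p = 0.0745). Creb3 was called higher in TruSeq alone (0.45, adjusted p = 0.00626). Creb3l1 had 63, 58 and 47 TruSeq counts after IL-1β and 7, 9 and 5 after saline. Pico counts of Creb3l1 were 71, 82 and 44 against 10, 8 and 10, and V4 counts were 51, 53 and 35 against 1, 6 and 12. IL-1β libraries were higher in each kit. For Creb3l1, the log2 fold change was 2.98 ± 0.33 in TruSeq (adjusted p = 0.00013), 2.74 ± 0.50 in Pico (adjusted p = 0.000988) and 3.22 ± 0.79 in V4 (adjusted p = 0.0256).

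Nupr1 encodes a small stress-induced chromatin protein. Nupr1 had 111, 86 and 68 TruSeq counts after IL-1β and 19, 5 and 14 after saline. Pico counts of Nupr1 were 27, 21 and 21 against 0, 1 and 2, and V4 counts were 282, 232 and 142 against 26, 17 and 37. Its saline counts were near 0 in Pico. Nupr1 rose by 3.03 ± 0.52 in V4 (log2, adjusted p = 0.00413) and by 2.96 ± 0.42 in TruSeq (adjusted p = 0.000618). In Pico it was called as well (adjusted p = 0.000254), but its fold change there rests on the count that voom adds and is not given. Txndc11 encodes an ER thioredoxin-like protein that acts with EDEM proteins. Txndc11 had 1054, 1090 and 1134 TruSeq counts after IL-1β and 376, 553 and 504 after saline. Pico counts of Txndc11 were 408, 445 and 390 against 191, 224 and 190, and V4 counts were 808, 899 and 1082 against 371, 575 and 523. IL-1β libraries were above saline libraries in each kit. For Txndc11, the log2 fold change was 1.25 ± 0.14 in TruSeq (adjusted p = 0.000123), 1.07 ± 0.15 in Pico (adjusted p = 8.88e-05) and 0.94 ± 0.21 in V4 (adjusted p = 0.0179). Selk had 954, 891 and 957 TruSeq counts after IL-1β and 637, 708 and 610 after saline. Pico counts of Selk were 265, 284 and 249 against 170, 171 and 143, and V4 counts were 1811, 1678 and 1814 against 1206, 1213 and 1217. Selk encodes a selenoprotein of the ER membrane linked to degradation, and its groups did not overlap. For Selk, the log2 fold change was 0.56 ± 0.10 in TruSeq (adjusted p = 0.00189), 0.75 ± 0.17 in Pico (adjusted p = 0.00418) and 0.55 ± 0.15 in V4 (adjusted p = 0.0347). Srp19 had 492, 431 and 492 TruSeq counts after IL-1β and 257, 313 and 270 after saline. Pico counts of Srp19 were 141, 119 and 134 against 61, 87 and 99, and V4 counts were 942, 977 and 952 against 573, 736 and 594. Srp19 encodes a protein of the signal recognition particle, and its IL-1β libraries were all higher. For Srp19, the log2 fold change was 0.80 ± 0.12 in TruSeq (adjusted p = 0.000707), 0.72 ± 0.23 in Pico (adjusted p = 0.0358) and 0.61 ± 0.18 in V4 (adjusted p = 0.0493).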

How the data were processed

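Per the labels and the study's methods, the authors aligned reads to mm9 with GSNAP, removed ribosomal reads, resampled the libraries of each kit to equal depth and counted reads per gene with PORT. The deposited values are whole counts, of sense reads in Pico and TruSeq and of both strands in V4. The tables were normalized separately, so tests stay within a kit or on the interaction. Here limma-voom (limma 3.58.1, R 4.3.3) was fitted to all genes with a count in a kit, with library totals and Benjamini-Hochberg adjustment. Alternatives were TMM factors, edgeR 4.0.16 (quasi-likelihood), DESeq2 1.42.0, at least 10 counts in 3 libraries, thinning to 4024632 counts (median of 5 draws) and leaving out each mouse. The script was tested on simulated data. Levels per kilobase used the union of annotated exons.

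The kits share mice: per the study's methods RNA of the same animal entered each, and deviations of the same mouse correlated at 0.184 to 0.428 (Pico, TruSeq), 0.175 to 0.435 (V4, TruSeq) and 0.0789 to 0.234 (Pico, V4). Mice of the 2 treatments are not paired. No pair of libraries of a kit agreed within sampling noise. Intervals cover the spread between these mice. The members and the other lists were chosen with earlier results of these data known. Shown in full are the 6 sensors and factors, Hyou1, the member with the smallest p of each interaction and, in each other group, up to 5 members called in the same direction in all kits by size in TruSeq (filled to 3 by smallest TruSeq p). Of other lists, up to 3 genes each follow that rule. Promoter windows came from RefSeq, with 33 of 41 members matched by symbol or synonym.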

Additional observations from a re-analysis of the deposited data

How the results depend on the processing

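The numbers of members called higher stayed within 1.5 times of the values above under TMM factors, edgeR, the filter on low counts, thinning to equal depth and adjusted p thresholds of 0.01 and 0.1, as they did with DESeq2 in Pico and TruSeq. DESeq2 called 22 members higher in V4, against 12 with limma-voom. Over all genes in V4 it called 1125 of 18051 higher, against 649 with limma-voom. Leaving out each mouse in turn gave 21 to 32 members higher in TruSeq, 16 to 22 in Pico and 9 to 12 in V4, and 0 to 1 lower in V4. Over all genes, these fits called 1809 to 2166 higher in TruSeq, 741 to 971 in Pico and 341 to 589 in V4. The V4 count of lower members was 0 with TMM factors, 0 at a threshold of 0.01 and 2 at 0.1, and the TruSeq count of lower members was 1 with TMM factors, 1 with edgeR, 1 with DESeq2 and 1 at a threshold of 0.01, with Ern1 left. The cause was not tested.

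For the interactions, adding each mouse as a replicate block, so that kits are paired, called 0 members in each pair of kits, as did TMM factors, edgeR, DESeq2, the filter on low counts and leaving out each mouse. Over all genes, the fit without U9576 called 0 for Pico against TruSeq, 57 for V4 against TruSeq and 39 for Pico against V4. Thinning and other thresholds were not run for the interactions. Of 627 log2 fold changes of the 19 members given in full, 588 kept their side of the threshold, 21 lost it, 10 gained it and 8 changed sign. The sign changes were of uncalled values near 0. Atf6 in V4 went from -0.073 to 0.096 with TMM factors, 0.11 with edgeR and 0.12 with DESeq2, and ran from -0.25 to 0.019 when single mice were left out, above 0 without I9579, I9583 or U9575. Ero1lb in TruSeq (0.022) ran from -0.19 without U9576 to 0.25 without U9575 and was -0.023 without I9583. With bases after the start left out, ERSE-II was in 1 member, the other motifs were in as many members as before, and over all genes ERSE was in 35 (0.13%), ERSE-II in 10, the XBP1-type core in 163 and the ATF4 element in 248. Sec61g, Derl3, Ddit3, Ero1l, Sec61b, Ssr2, Spcs1 and Sec11c had under 200 counts in every Pico library. With 3 mice per treatment, small differences in these genes were not detectable there. Each library is 1 preparation of 1 mouse.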
